A study of Mus musculus with 11 samples.

Results

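The chemokine ligands are the small secreted proteins that direct the migration of leukocytes. They were taken as every array probe whose gene name starts with Ccl or Cxcl followed by a number, or is Cx3cl1 or Xcl1. The rule found 45 of the 41174 probes, which belong to 35 of the 20956 named genes. Of these genes 23 could be tested, among 15717 tested in all, and 12 were too dim (their values are given at the end). The study measured liver RNA of 11 newborn mice on Agilent whole mouse genome arrays labelled with Cy3 alone. The 6 mutant pups were double transgenic, AFP-Cre/Rosa26-lsl-NICD. Their Cre is driven by the promoter of alpha-fetoprotein, a gene of fetal liver cells, and cuts out the block in front of NICD, the fragment of the Notch receptor that acts in the nucleus. The 5 control pups were mono transgenic and carried the Rosa26-lsl-NICD allele without Cre. All pups were of the hybrid 129 x C57BL/6 background. There were 2 controls and 3 mutants at postnatal day 0 and 3 controls and 3 mutants at postnatal day 2. There were no pups with Cre alone, and what Cre does and what NICD does cannot be told apart.

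Chemokines bind membrane receptors that signal through G proteins, and leukocytes move up the gradient of the ligand they can read. Some are made only on demand. Cxcl9, Cxcl10 and Cxcl11 are induced by interferon gamma and call in T cells and natural killer cells through Cxcr3, while Cxcl1, Cxcl2 and Cxcl5 are induced by NF-kB and call in neutrophils through Cxcr2. Others, such as Cxcl12, which holds blood stem cells and lymphocytes through Cxcr4, are made in the resting tissue. The neonatal liver still makes blood cells, and its macrophages, megakaryocytes, endothelium and bile duct cells can each be a source of ligands.

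The bases before each gene were searched for motifs of the factors that induce these ligands. In RefSeq (GRCm38.p6), 26 of the 35 genes had a window of the 250 bases before their start, 29 windows in all. The 4 windows below are shown for 2 reasons. Cxcl1, Cxcl2 and Cxcl10 were among the ligands far higher on 1 array than on all others. Cxcl9 was the interferon induced ligand that fell in the mutants. Ccl3 and Ccl20 were also far higher on that 1 array, and their windows, which held no match to any motif searched, are not shown. Ccl2 and Ccl4, high there too, had no window. They are written in the direction of the gene, and capitals mark every match to an NF-kB motif (GGGA and TTCC with any 2 bases between) or an interferon-stimulated response element (GAAA and GAAA with any 2 bases between), searched on both strands. The windows are chr5:90890995-90891244 on the plus strand for Cxcl1, chr5:90903649-90903898 on the plus strand for Cxcl2, chr5:92348890-92349139 on the minus strand for Cxcl10 and chr5:92328080-92328329 on the minus strand for Cxcl9.
Cxcl1: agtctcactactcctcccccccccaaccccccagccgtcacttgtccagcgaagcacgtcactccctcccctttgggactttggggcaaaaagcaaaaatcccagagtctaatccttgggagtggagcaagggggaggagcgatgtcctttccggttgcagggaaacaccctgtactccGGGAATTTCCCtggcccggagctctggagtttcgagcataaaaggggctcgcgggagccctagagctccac
Cxcl2: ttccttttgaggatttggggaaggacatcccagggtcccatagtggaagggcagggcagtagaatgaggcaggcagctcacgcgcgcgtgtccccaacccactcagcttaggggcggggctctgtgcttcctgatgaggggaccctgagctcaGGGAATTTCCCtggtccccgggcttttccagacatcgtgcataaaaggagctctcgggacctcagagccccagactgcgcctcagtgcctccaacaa
Cxcl10: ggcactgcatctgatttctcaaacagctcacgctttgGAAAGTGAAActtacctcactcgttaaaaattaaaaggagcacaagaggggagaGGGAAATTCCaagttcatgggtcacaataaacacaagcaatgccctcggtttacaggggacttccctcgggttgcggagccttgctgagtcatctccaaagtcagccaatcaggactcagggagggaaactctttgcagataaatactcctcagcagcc
Cxcl9: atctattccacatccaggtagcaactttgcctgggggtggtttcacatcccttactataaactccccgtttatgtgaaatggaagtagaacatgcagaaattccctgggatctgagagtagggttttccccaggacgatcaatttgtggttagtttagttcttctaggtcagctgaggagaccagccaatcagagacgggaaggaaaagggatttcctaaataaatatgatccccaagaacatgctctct
The capitals of Cxcl1 and of Cxcl2 each hold a pair of overlapping NF-kB matches, which start 71 and 70 bases before the gene in Cxcl1 and 97 and 96 bases before it in Cxcl2. In Cxcl10 the response element started 213 bases and the NF-kB match 159 bases before the gene. The Cxcl9 window held no match to either motif, which says only that these letters are not in these 250 bases. The NF-kB motif was found in 4 of the 29 windows of chemokine ligands (Ccl1, Cxcl1, Cxcl2 and Cxcl10) and in 1.21% of the 32851 windows of all genes. The response element was found in 3 of 29 (Ccl19, Cxcl10 and Cxcl14), against 2.98% of all windows. A gamma-activated site (TTCNNNGAA) was found in 2 of 29 (Ccl17 and Cxcl14), against 7.02%, and can overlap the other motifs. The motif of RBPJ, the DNA-binding partner of NICD (GTGGGAA), was found in 0 of 29, against 5.42%.

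The genes lie in a few clusters, as the probe positions on build mm8 show. Of the 35 genes, 11 have their probe on chromosome 5 and 12 on chromosome 11. Cxcl9, Cxcl10 and Cxcl11 are neighbours, with probes at chr5:93398365-93398424, chr5:93421955-93422014 and chr5:93436297-93436448. Cxcl5, Cxcl7 and Cxcl4 are neighbours too, at chr5:91836379-91836438, chr5:91845144-91845203 and chr5:91848449-91848508. The exon or UTR under each probe is not given, as no mm8 annotation was used here.

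Levels are given on the log2 scale relative to the 75th percentile of signal on each array, which is 0. This percentile ran from 607.72 to 1301.55 intensity units, and 63.3% to 68.6% of spots were well above background. As a check of the tissue, 10 hepatocyte markers had a summed signal of 844 to 1613 times the 75th percentile. Sox9, which marks bile duct cells and is a known Notch target, was 4.30 ± 0.18 (SE) log2 higher in mutants over both days (limma, adjusted p = 4.76e-06). The labels name separate samples of each group, and p-values measure only the spread between them. By Xist and Y-linked probes the day 0 controls were 2 males and the day 0 mutants 3 females, so sex and genotype cannot be told apart at day 0, while each day 2 group held 1 male and 2 females. The sexes thus also differed between the days within each genotype. In whole liver RNA, fewer cells of a type and less RNA per cell cannot be told apart.

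One array stood apart, and the chemokine ligands were among the genes that set it apart. Mutant day 0 replicate 3 correlated with its group mates at 0.953 and 0.952 across genes, while other pairs within a group reached at least 0.983. On it 583 of 15505 genes (3.76%) were at least 2-fold above all other arrays and 467 (3.01%) at least 2-fold below, against at most 44 and 64 on any other array. Among the 23 tested ligands 9 were above and 2 below by that measure. Ccl2, the main attractant of monocytes, was at 6.55 there and between -1.65 and 0.10 on the other 10 arrays, which is 87.3-fold over the highest of them. Cxcl1 was at 3.88 against -4.72 to -2.10 (63.0-fold). Ccl3 and Ccl4, macrophage inflammatory proteins, were at 1.24 and 0.41 and exceeded the highest other array 38.6-fold and 15.3-fold. Cxcl10 was at 5.51, 26.4-fold over the highest other array. Ccl20, which calls in dendritic cells and lymphocytes through Ccr6, was 12.6-fold over it, and Ccl7, Cxcl5 and Ccl19 were 3.64-fold, 3.12-fold and 2.04-fold over it. Not all inducible ligands were high there: Cxcl9 was at -4.23, below 4 of the 5 controls, and Ccl5 at -1.11, within the range of the other arrays. Cxcl12 (1.80, against at least 3.28 elsewhere) and Ccl24 (-0.95, against at least 0.17) were the 2 ligands at least 2-fold below all other arrays.

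Other immediate response genes, chosen after their values were seen, were high on the same array. Hspa1a, a heat shock protein, was 81.0-fold and Fos, an immediate early gene, 7.18-fold over the highest other array. The 15 NF-kB target genes had a summed signal of 183 there and of 27.0 to 43.8 on the other 10 arrays. The sum leans on Nfkbia, the brightest of them there at 6.81. Not all of the list was high: Nfkb1, Vcam1 and Saa1 lay within the range of the other arrays and Saa2 (-7.68) below it. Ifng itself was not well above background on it (-8.05). What set this array apart was not tested, and the main ligand results are given with and without it. Leaving it out also lowers the pooled estimate of the spread, so that day 2 comparisons, whose arrays stay the same, can pass without it.

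**Figure D1:**
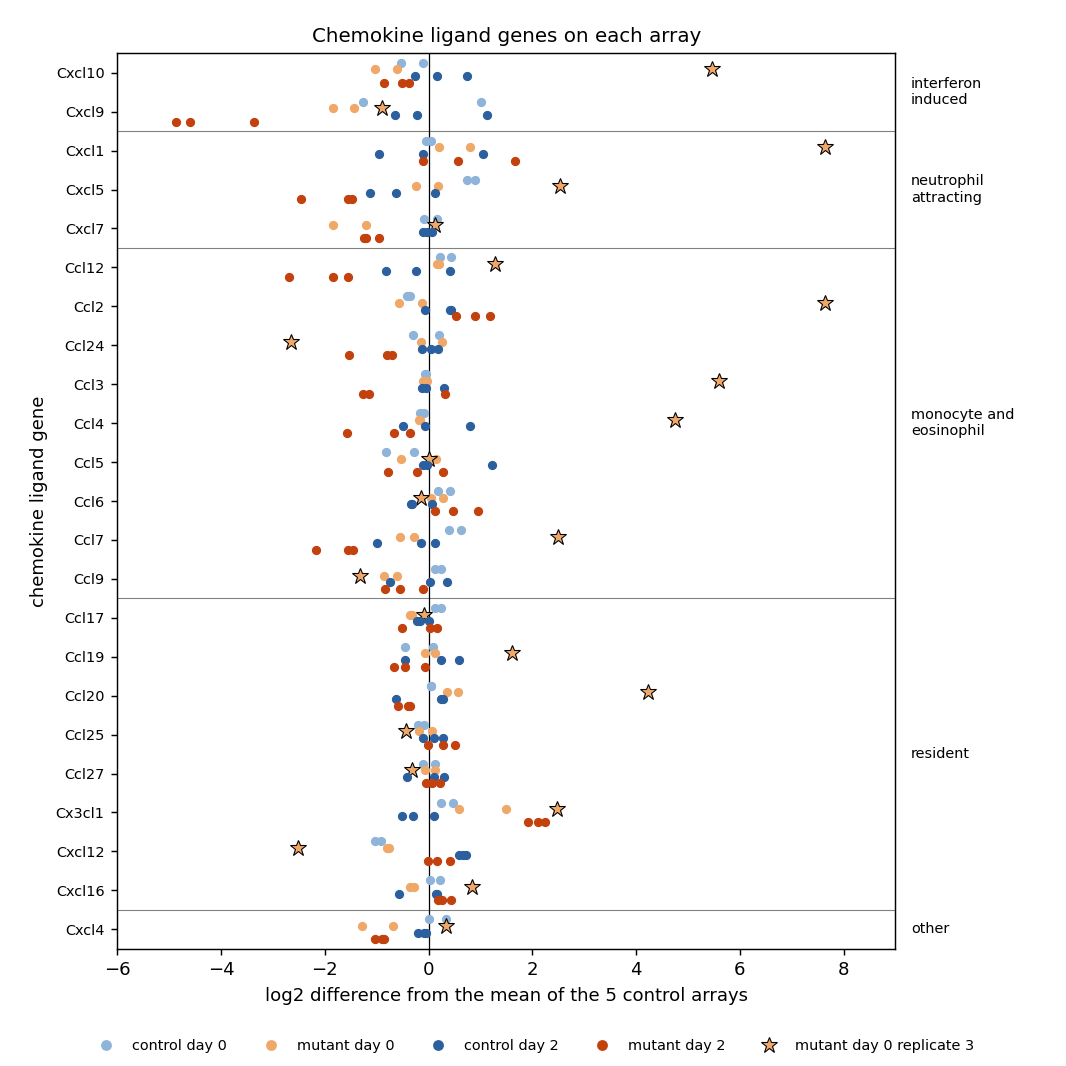
Level of each of the 23 tested chemokine ligand genes on each of the 11 arrays, as the log2 difference from the mean of the 5 control arrays of that gene, ordered by role and coloured by group. Mutant day 0 replicate 3 (star) reaches 7.64, while all other arrays lie between -4.87 and 2.24, and the day 2 mutants have the lowest values for Cxcl9.

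Of the 2 tested ligands induced by interferon gamma, Cxcl9 fell in the mutants and Cxcl10 did not pass the test, although both were lower in every day 2 mutant than in every day 2 control. Whether the 2 differ was not tested. Cxcl9 was at -4.60 and -2.34 in the day 0 controls, at -2.21, -3.57 and -3.99 in the day 2 controls, at -5.18, -4.78 and -4.23 in the day 0 mutants and at -6.71, -7.94 and -8.21 in the day 2 mutants. At day 2 the groups did not overlap, and no mutant was well above background where all 3 controls were. At day 0 the groups overlapped, and both were above background. Over both days with equal weight Cxcl9 was -2.81 ± 0.50 (SE) log2 in mutants minus controls (adjusted p = 0.00516), and at day 2 it was -4.36 ± 0.66 (adjusted p = 0.00247). Because the day 2 mutants were at background, the size depends on how dim signal is treated. Against the dimmest signal above background on those arrays, Cxcl9 was 8.33-fold lower. On each of the 3 slides that held both day 2 groups the difference was -4.50, -4.37 and -4.22, and at day 0 it was -0.58 and -2.44 on slides 1 and 2. Without mutant day 0 replicate 3 the difference was -2.94 over both days (adjusted p = 0.00559) and -4.36 at day 2 (adjusted p = 0.00252). The difference between the days was -3.1 ± 0.99 and did not pass (adjusted p = 0.216). A correction that adds an offset to dim signals gave a smaller day 2 difference of -1.61 (adjusted p = 0.014), and the authors' deposited table gave -2.16 (adjusted p = 0.00925).

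Cxcl10 was well above background on every array. It was at -0.47 and -0.06 in the day 0 controls, at 0.78, -0.21 and 0.21 in the day 2 controls, at -0.55, -0.99 and 5.51 in the day 0 mutants and at -0.33, -0.45 and -0.82 in the day 2 mutants. Except for replicate 3 of day 0, each mutant lay below every control of its day. The fit gave 0.40 ± 1.04 over both days (adjusted p = 0.845) and -0.80 ± 1.39 at day 2 (adjusted p = 0.739). Without that array it gave -0.65 ± 0.21 (adjusted p = 0.054) and -0.80 ± 0.27 (adjusted p = 0.0535), which did not pass either. Cxcl11 was above background on only 2 arrays, at -5.40 in day 2 control replicate 1 and at -4.32 in mutant day 0 replicate 3.

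Ifng and part of the genes that answer interferon fell in the mutants as well, while the receptor Cxcr3 did not pass the test. Cxcr3 was at -3.15 and -2.66 in the day 0 controls, at -1.73, -2.09 and -2.59 in the day 2 controls, at -3.30, -2.78 and -4.95 in the day 0 mutants and at -3.07, -3.75 and -3.53 in the day 2 mutants. The day 2 groups did not overlap, but the difference did not pass (-1.31 ± 0.50, adjusted p = 0.106, and 0.00946 without mutant day 0 replicate 3). Ifng, the gene of interferon gamma, was at -3.48, -4.49 and -4.80 in the day 2 controls and at -5.80, -6.88 and -8.16 in the day 2 mutants, of which 1 was well above background. It fell by 2.69 ± 0.64 log2 at day 2 (adjusted p = 0.0201) and by 1.82 ± 0.48 over both days (adjusted p = 0.0311). Ifng passed the filter on dim probes only through the day 2 controls, the group where it was highest. Its p-values are therefore not independent of the filter. It was -1.55 over both days without mutant day 0 replicate 3 (adjusted p = 0.0344). At day 0 it was above background in 1 of 2 controls and 0 of 3 mutants. Of 27 interferon response genes 9 fell and 0 rose over both days, with a median of -0.59 against -0.05 over all genes, and 10 fell at day 2, where 7.05% and 6.62% of all genes fell. With 1 array left out the day 2 count ran from 6, without day 2 control replicate 1, to 15, without mutant day 0 replicate 3. Their summed signal was 166 to 206 in the day 2 controls and 73.2 to 94.6 in the day 2 mutants. At day 0 it was 167 to 197 in the controls and 119 to 184 in the mutants. Among those that fell over both days were the interferon-inducible GTPases Iigp1 (-2.10 ± 0.28, adjusted p = 0.0012), Tgtp1 (-1.23 ± 0.21, adjusted p = 0.00389) and Igtp (-1.04 ± 0.13, adjusted p = 0.000989) and the antiviral gene Ifit3 (-1.28 ± 0.26, adjusted p = 0.00957). The count over both days was 3 with pup sex in the fit, 13 without mutant day 0 replicate 3, 5 without day 2 mutant replicate 3 and 3 without day 0 control replicate 1. Of all genes, with 1 array left out, 433 to 2001 fell over both days and 409 to 2384 at day 2.

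**Figure D2:**
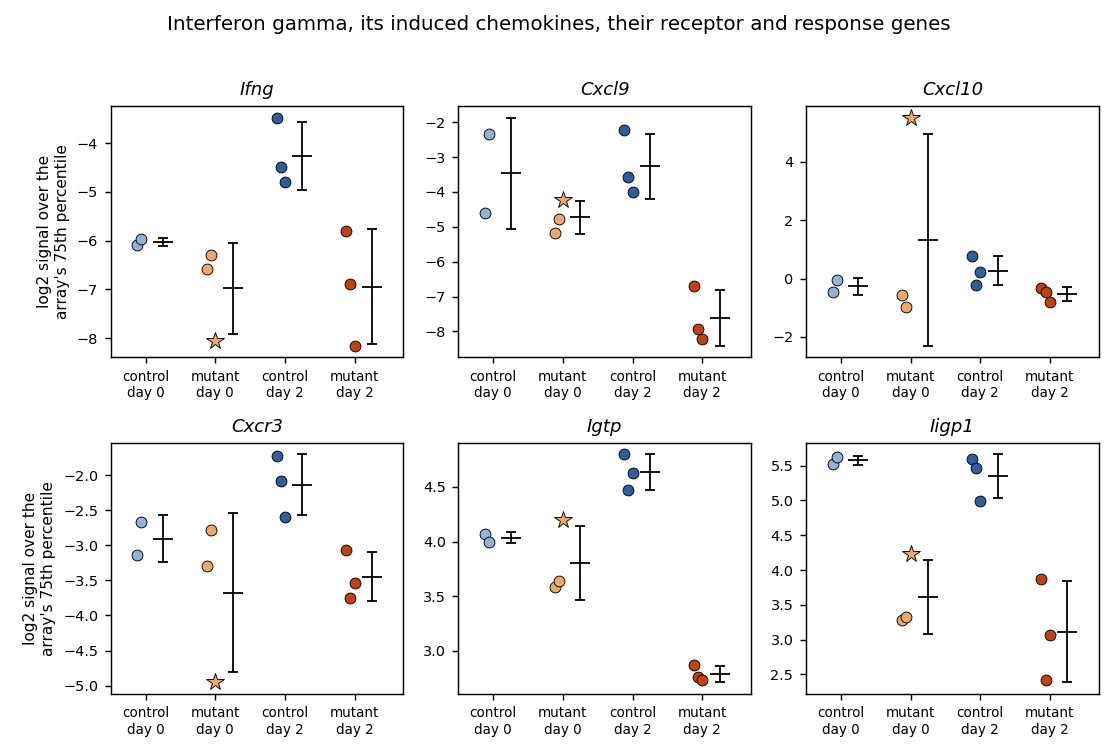
Log2 signal over the 75th percentile of the array for Ifng, Cxcl9, Cxcl10, Cxcr3, Igtp and Iigp1 in the 4 groups of genotype and day, with the mean and SD of each group beside its arrays (2 day 0 controls, 3 arrays in each other group; star, mutant day 0 replicate 3). At day 2 every mutant lies below every control for all 6 genes, and on the starred array Cxcl10 stands at 5.51 while Ifng stands at -8.05.

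Of the neutrophil attracting ligands 1 of 3 tested fell over both days and 0 rose, where 7.05% of all genes fell and 8.86% rose. Cxcl7, whose product is released by platelets and becomes a neutrophil attractant after cleavage, was at 4.49 and 4.74 in the day 0 controls, at 4.55, 4.65 and 4.48 in the day 2 controls, at 3.37, 2.74 and 4.7 in the day 0 mutants and at 3.62, 3.34 and 3.38 in the day 2 mutants. All mutants except replicate 3 of day 0 lay below all controls. It fell by 1.06 ± 0.30 log2 over both days (adjusted p = 0.0406), and this call held in 11 of 23 alternative settings. It was lost (adjusted p 0.0643 to 0.139) when any 1 array other than day 0 mutant replicate 2 or 3 was left out. With pup sex in the fit the adjusted p was 0.163, and without mutant day 0 replicate 3 it was 0.000341 at -1.34 ± 0.14. The within-slide differences were -1.12 and -2.0 at day 0 and -0.93, -1.31 and -1.10 at day 2.

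Cxcl1 and Cxcl5 are the classic ligands of Cxcr2. Cxcl1 was at -3.71 and -3.81 in the day 0 controls, at -3.86, -4.72 and -2.72 in the day 2 controls, at -2.97, -3.56 and 3.88 in the day 0 mutants and at -2.10, -3.87 and -3.20 in the day 2 mutants. The day 2 groups overlapped. Its difference of 1.79 ± 1.23 over both days did not pass (adjusted p = 0.375), and it was 0.60 ± 0.44 without mutant day 0 replicate 3 (adjusted p = 0.362). Cxcl5 was at -4.65 and -4.80 in the day 0 controls, at -6.68, -6.18 and -5.41 in the day 2 controls, at -5.37, -5.78 and -3.0 in the day 0 mutants and at -7.03, -7.09 and -8.00 in the day 2 mutants. At day 2 it was above background in 1 of 3 controls and 0 of 3 mutants. It did not pass over both days (-0.64 ± 0.49, adjusted p = 0.434), and passed without that array (-1.07 ± 0.28, adjusted p = 0.0257). Cxcl2 was not above background in any control. It reached -0.32 on mutant day 0 replicate 3, -4.55 on mutant day 0 replicate 2 and -3.72 on mutant day 2 replicate 2.

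Among the ligands that call in monocytes, T cells and eosinophils, Ccl12 was the 1 of 9 that passed a genotype comparison with all arrays, at day 2, where 6.62% of all genes fell. Ccl12, a monocyte attractant read by Ccr2, was at -4.24 and -4.04 in the day 0 controls, at -4.7, -5.28 and -4.05 in the day 2 controls, at -4.26, -4.29 and -3.18 in the day 0 mutants and at -6.01, -6.30 and -7.15 in the day 2 mutants. Every day 2 mutant lay below every other array, and 1 of the 3 was well above background. It fell by 1.81 ± 0.42 log2 at day 2 (adjusted p = 0.018). The difference was -1.31, -1.01 and -3.1 on the 3 slides, and the adjusted p was between 0.0511 and 0.062 without day 2 control replicate 1, day 2 control replicate 3 or day 2 mutant replicate 3. Ccl7, another ligand of Ccr2, was at -2.33 and -2.10 in the day 0 controls, at -2.60, -2.86 and -3.72 in the day 2 controls, at -3.28, -3.01 and -0.23 in the day 0 mutants and at -4.18, -4.27 and -4.88 in the day 2 mutants. Its day 2 groups did not overlap, and the difference of -1.38 ± 0.70 did not pass (adjusted p = 0.214, and 0.0105 without mutant day 0 replicate 3). These values come from the brighter of its probes. A second probe of Ccl7 gave -2.32 at day 2 without passing (adjusted p = 0.236). It was at 0.62 on mutant day 0 replicate 3, against -7.10 to -3.95 elsewhere.

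Ccl2 did not share the low day 2 values of Ccl12 and Ccl7. It was at -1.44 and -1.50 in the day 0 controls, at -0.66, -0.68 and -1.15 in the day 2 controls, at -1.22, -1.65 and 6.55 in the day 0 mutants and at -0.56, 0.10 and -0.20 in the day 2 mutants. The day 2 mutants lay above the day 2 controls by 0.61, without passing (adjusted p = 0.847, and 0.0603 without mutant day 0 replicate 3). Over both days its difference was 1.65 ± 1.31 with that array and 0.32 ± 0.17 without it. Receptor Ccr2 was at -2.31, -2.74 and -3.03 in the day 2 controls and at -3.16, -3.27 and -3.60 in the day 2 mutants, a difference of -0.65 ± 0.33 that did not pass (adjusted p = 0.214).

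Ccl6 and Ccl9 are made by myeloid cells and macrophages. Ccl6 was at 1.44 and 1.21 in the day 0 controls, at 0.72, 0.70 and 1.10 in the day 2 controls, at 1.08, 1.30 and 0.90 in the day 0 mutants and at 1.16, 1.98 and 1.51 in the day 2 mutants. It was higher in every day 2 mutant than in every day 2 control, by 0.71 ± 0.22 (adjusted p = 0.0599, and 0.0391 without mutant day 0 replicate 3). Ccl9 was at 3.51 and 3.39 in the day 0 controls, at 3.31, 3.62 and 2.52 in the day 2 controls, at 2.41, 2.67 and 1.95 in the day 0 mutants and at 2.44, 2.73 and 3.16 in the day 2 mutants. Its groups did not overlap at day 0 and overlapped at day 2. Over both days the difference was -0.74 ± 0.23 (adjusted p = 0.0579), and -0.64 ± 0.23 without mutant day 0 replicate 3 (adjusted p = 0.0713).

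Ccl24, an eosinophil attractant also called eotaxin 2, was at 1.90 and 1.39 in the day 0 controls, at 1.56, 1.86 and 1.75 in the day 2 controls, at 1.56, 1.96 and -0.95 in the day 0 mutants and at 0.88, 0.99 and 0.17 in the day 2 mutants. The day 2 groups did not overlap. The day 2 difference of -1.04 ± 0.64 did not pass (adjusted p = 0.304), and without mutant day 0 replicate 3 it did (-1.04 ± 0.24, adjusted p = 0.0144). Receptor Ccr3, which reads Ccl24 and other eotaxins, was -1.60 ± 0.49 over both days (adjusted p = 0.0562). Ccl5, which calls in T cells, was at -1.94 and -1.40 in the day 0 controls, at 0.09, -1.16 and -1.23 in the day 2 controls, at -1.66, -0.99 and -1.11 in the day 0 mutants and at -0.85, -1.91 and -1.36 in the day 2 mutants. Its groups overlapped on both days, and the difference over both days was -0.09 ± 0.30 (adjusted p = 0.875). Ccl3 and Ccl4 overlapped between the groups at day 2 and did not pass with or without mutant day 0 replicate 3.

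Of the ligands of the resident tissue Cx3cl1 was the 1 of 8 that rose in the mutants, where 8.86% of all genes rose over both days and 9.68% at day 2. Cx3cl1, also called fractalkine, is tethered to the membrane of endothelial and epithelial cells and holds monocytes through Cx3cr1. It was at -1.51 and -1.28 in the day 0 controls, at -1.66, -2.06 and -2.28 in the day 2 controls, at -0.27, -1.16 and 0.72 in the day 0 mutants and at 0.49, 0.36 and 0.16 in the day 2 mutants. Every mutant lay above every control, on either day. It rose by 1.75 ± 0.30 log2 over both days (3.35-fold, adjusted p = 0.00427) and by 2.33 ± 0.40 at day 2 (5.04-fold, adjusted p = 0.00441). On the slides the difference was 2.14, 2.42 and 2.44 at day 2, and 1.24 and 0.12 at day 0. Without mutant day 0 replicate 3 it was 1.51 ± 0.20 over both days (adjusted p = 0.00113). The larger difference at day 2 was itself not past the threshold (1.17 ± 0.59, adjusted p = 0.401). The values come from the probe at chr8:97671414-97671473 (mm8). A second probe for Cx3cl1, at chr8:97661971-97662030, was not above background on any array. Receptor Cx3cr1 did not pass (-0.54 ± 0.51 over both days, adjusted p = 0.534).

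**Figure D3:**
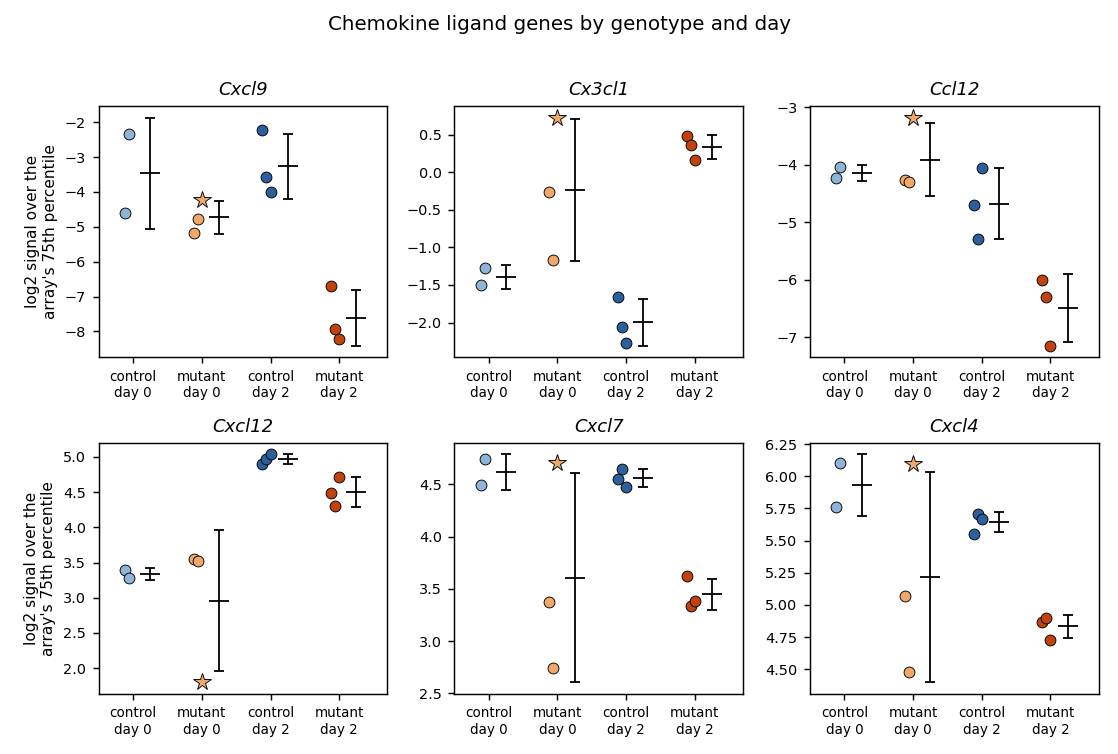
Log2 signal over the 75th percentile of the array for Cxcl9, Cx3cl1, Ccl12, Cxcl12, Cxcl7 and Cxcl4 in the 4 groups of genotype and day, with the mean and SD of each group beside its arrays (2 day 0 controls, 3 arrays in each other group; star, mutant day 0 replicate 3). Cx3cl1 is higher in every mutant than in every control, Cxcl12 is higher at day 2 than at day 0 in both genotypes, and Cxcl7 and Cxcl4 are at control levels on the starred array alone among the mutants.

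Cxcl12 differed by age rather than by a called genotype difference. It was at 3.40 and 3.28 in the day 0 controls, at 4.89, 4.98 and 5.04 in the day 2 controls, at 3.55, 3.52 and 1.80 in the day 0 mutants and at 4.48, 4.30 and 4.72 in the day 2 mutants. All day 2 arrays lay above all day 0 arrays. From day 0 to day 2 it rose by 1.63 ± 0.45 log2 in controls (3.1-fold, adjusted p = 0.0473) and by 1.55 ± 0.40 in mutants (2.92-fold, adjusted p = 0.0272). Without mutant day 0 replicate 3 the rise in mutants was 0.97 ± 0.14 (adjusted p = 0.00365), while the rise in controls stayed at 1.63 (adjusted p = 0.000402). The day 2 mutants lay below the day 2 controls by 0.47 ± 0.40, which did not pass (adjusted p = 0.472, and 0.0235 without that array). The call in controls held in 10 of 24 alternative settings and was lost (adjusted p 0.0671 to 0.22) without any 1 control array or any 1 day 2 mutant. The call in mutants was lost without any 1 day 2 mutant (adjusted p 0.0608 to 0.0914). With pup sex in the fit neither call held (adjusted p = 0.158 in controls and 0.0595 in mutants). The 2 probes of Cxcl12 did not give the same size: the one at chr6:117146828-117146887 gave these values, and the one at chr6:117140075-117140134 gave 0.43 in controls (adjusted p = 0.568) and 0.78 in mutants (adjusted p = 0.188). Its receptors were Cxcr4, at -0.49 ± 0.35 between the genotypes over both days (adjusted p = 0.397), and the scavenger Ackr3, which fell by 1.33 ± 0.23 from day 0 to day 2 in controls (adjusted p = 0.0101) and was -0.08 ± 0.21 in mutants (adjusted p = 0.812), and the difference between the 2 changes did not pass (adjusted p = 0.142).

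The other resident ligands gave no call in any comparison with all arrays. Cxcl16, a membrane ligand of Cxcr6, was at -1.12 and -0.93 in the day 0 controls, at -1.0, -0.98 and -1.71 in the day 2 controls, at -1.49, -1.43 and -0.30 in the day 0 mutants and at -0.72, -0.89 and -0.96 in the day 2 mutants. The day 2 mutants lay just above the day 2 controls, by 0.37 ± 0.32 (adjusted p = 0.47). Ccl25, the ligand of Ccr9, was at 0.65 and 0.53 in the day 0 controls, at 0.61, 1.01 and 0.83 in the day 2 controls, at 0.78, 0.55 and 0.30 in the day 0 mutants and at 0.72, 1.24 and 1.01 in the day 2 mutants. Its groups overlapped, and the difference over both days was 0.06 ± 0.14 (adjusted p = 0.807). Ccl17, Ccl19, Ccl20 and Ccl27 did not pass either, and the 8 resident ligands ranged from -0.42 (Cxcl12) to 1.75 (Cx3cl1) over both days. Ccl27 has near-identical gene copies, so that its probe may read more than 1 of them.

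Cxcl4, or platelet factor 4, is stored in platelets and made by megakaryocytes. It was at 5.76 and 6.10 in the day 0 controls, at 5.55, 5.70 and 5.67 in the day 2 controls, at 5.07, 4.48 and 6.09 in the day 0 mutants and at 4.87, 4.90 and 4.73 in the day 2 mutants. As for its neighbour Cxcl7, all mutants except replicate 3 of day 0 lay below all controls. The difference was -0.76 ± 0.25 over both days (adjusted p = 0.0701) and -0.98 ± 0.13 without that array (adjusted p = 0.00135). Of 8 other genes of megakaryocytes 2 fell over both days, where 7.05% of all genes did, and 8 did so without mutant day 0 replicate 3, where 12.7% did. With the 2 ligands counted, 3 of 10 fell, and with 1 array left out this count ran from 0, without either day 0 control, to 10. The matching count over all genes ran from 433 to 2001. Clec1b (-0.76 ± 0.17, adjusted p = 0.0185) and Gp1bb (-0.91 ± 0.24, adjusted p = 0.0299), both platelet surface receptors, were the 2. The summed signal of the 8 genes was 26.4 to 30.5 in the day 2 controls and 11.8 to 13.7 in the day 2 mutants, and at day 0 it was 23.7 and 31.3 in the controls against 13.5, 9.76 and 34.3 in the mutants. The part of these cells in the values of Cxcl7 and Cxcl4 was not tested.

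Counted over all 23 tested ligands, 1 rose (4.35%) and 2 fell (8.7%) over both days, where 8.86% of all genes rose and 7.05% fell. The median difference of the ligands was -0.0013, against -0.05 for all genes. Both shares lie near or under the background, so the ligands as a whole were not called more often than other genes. Without mutant day 0 replicate 3, 1 rose and 6 fell (26.1%), where 13.2% and 12.7% of all genes did. The 4 added ligands were Ccl7, Ccl12, Cxcl4 and Cxcl5. At day 0 none was called in either direction by limma (background 1.62% and 0.713%), with 1 higher and 2 lower at an unadjusted p under 0.05. Without the array Cxcl4 and Cxcl7 fell at day 0 and none rose (background 2.38% and 3.32%). At day 0 the groups did not overlap in 3 ligands with higher mutants (13%, background 16.3%) and in 2 with lower mutants (8.7%, background 15.3%). At day 2 Cx3cl1 rose, and Cxcl9 and Ccl12 fell (background 9.68% and 6.62%). The day 2 median of the ligands was -0.52, against -0.09 for all genes.

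**Figure D4:**
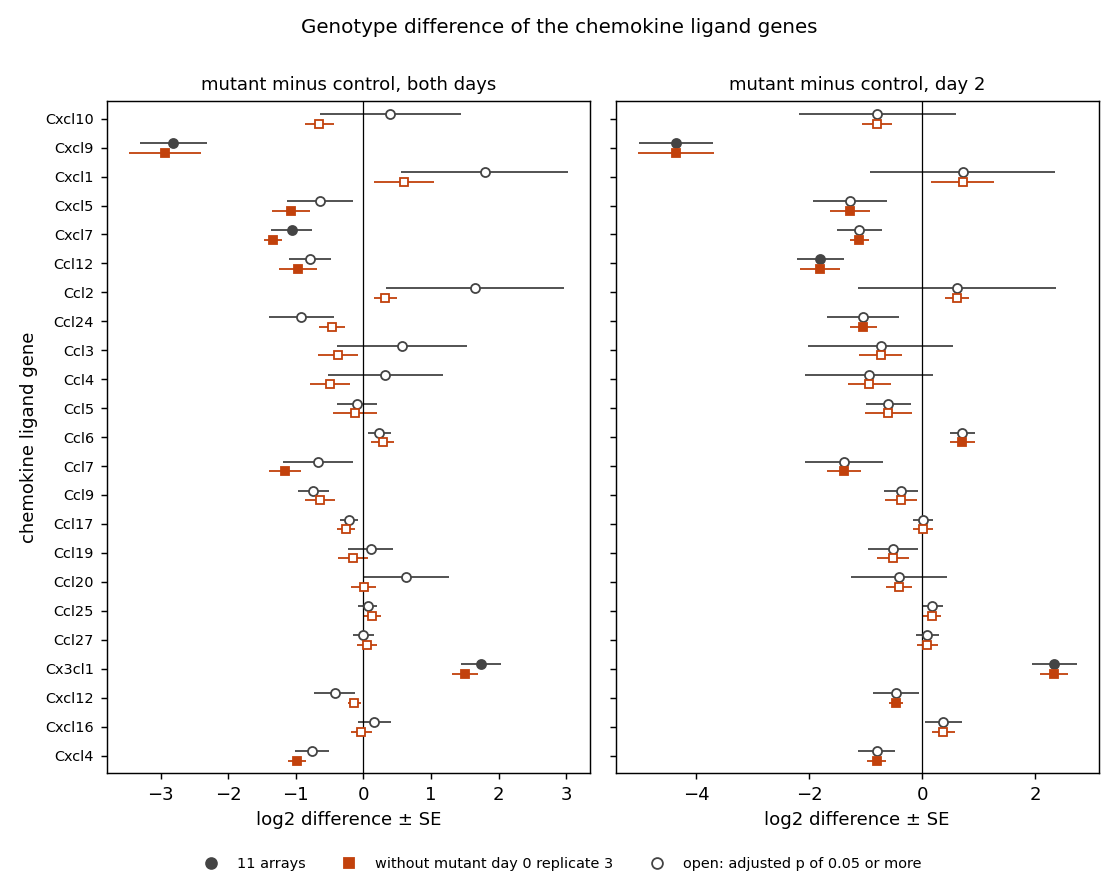
Log2 difference between mutants and controls with its SE for the 23 tested chemokine ligand genes, over both days (left) and at day 2 (right), from all 11 arrays (circles) and without mutant day 0 replicate 3 (squares); filled symbols passed an adjusted p of 0.05. Cx3cl1 (1.75) and Cxcl9 (-2.81) are filled in both fits over both days, and the intervals of Ccl2, Cxcl1 and Cxcl10 narrow when the 1 array is left out.

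At day 2 more ligands had separate groups than passed the test. In 9 of 23 ligands (39.1%) every day 2 mutant lay below every day 2 control, where 24.6% of 15505 genes did so. In 4 ligands (17.4%), Ccl2, Ccl6, Cx3cl1 and Cxcl16, every mutant lay above, where 21% of genes did. The 9 held ligands of all roles: Cxcl9 and Cxcl10, Cxcl5 and Cxcl7, Ccl7, Ccl12 and Ccl24, Cxcl12, and Cxcl4. Without mutant day 0 replicate 3 the fit called 8 lower and 2 higher at day 2, where it called 15.2% and 14.9% of all genes. The difference between the genotype effects of the days passed for none of the ligands (background 0.235% higher and 0.0382% lower by limma), and 1 higher and 2 lower had an unadjusted p under 0.05. It passed for none without that array either (background 1.46% and 0.369%).

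From day 0 to day 2 the brighter probe of Cxcl12 rose in controls and in mutants, and several inducible ligands fell in the mutants. In controls Cxcl12 was the 1 ligand that rose and none fell by limma (background 5.55% and 5.76%), none being lower at an unadjusted p under 0.05. In mutants 1 rose and 4 fell (background 9.39% and 11.2%). Those that fell were Ccl12 (-2.57 ± 0.42, adjusted p = 0.00495), Cxcl9 (-2.89 ± 0.66, adjusted p = 0.0177), Cxcl5 (-2.65 ± 0.66, adjusted p = 0.0232) and Ccl7 (-2.27 ± 0.70, adjusted p = 0.0469). The calls of Cxcl9 and Cxcl5 were lost without day 2 mutant replicate 2 (adjusted p 0.0604 and 0.056) or 3 (0.0672 and 0.0841), and that of Ccl7 without any 1 control array or any 1 day 2 mutant (0.0522 to 0.14). The replicate number as a fixed block also ended the call of Ccl7 (adjusted p = 0.0711) and, in controls, that of Cxcl12 (adjusted p = 0.0609). Cxcl9 and Cxcl5 were not well above background in any day 2 mutant. Against the dimmest signal above background on those arrays they were 3.0-fold and 3.02-fold lower, or 2.53-fold and 1.67-fold lower without mutant day 0 replicate 3. Without mutant day 0 replicate 3 all 4 still passed, with Ccl7 at -1.30 and Cxcl5 at -1.80, and Ccl20 and Ccl24 passed as lower and Ccl2 and Cx3cl1 as higher. Ccl20 had entered the test only through the day 0 mutants, where it was above background on all arrays. Cxcl5 had entered it only through the day 0 groups of controls and mutants, where it was highest. The p-values of Ccl20 and Cxcl5 over time are therefore not independent of the filter. For Ccl2 the sign turned, from -1.45 with the array to 1.21 ± 0.24 without it (adjusted p = 0.0103). The background without it was 10.2% higher and 12.2% lower in mutants. In controls Cxcl5 passed as lower without it (-1.36 ± 0.40, adjusted p = 0.037), beside Cxcl12 as higher (background 13.6% lower and 13.9% higher). Whether the 2 genotypes differ in these changes is the difference between the days given above, which passed for no ligand.

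Of 24 chemokine receptor genes 19 could be tested. Over both days none passed by limma (background 8.86% higher and 7.05% lower), with 1 higher and 5 lower at an unadjusted p under 0.05. The median of the receptors was -0.16, against -0.05 for all genes. At day 2, 1 of the 19 rose and 1 fell, where 9.68% and 6.62% of all genes did. Both are named here after their values were seen. Ackr4, a scavenger of Ccl19, Ccl21 and Ccl25, was above background in 3 of 3 mutants and 0 of 3 controls (adjusted p = 0.0313). Against the dimmest signals above background on the control arrays it was 3.93-fold higher in mutants. It passed the filter on dim probes only through the day 2 mutants, so its p-value is not independent of the filter. Ackr1, which binds many inflammatory ligands on endothelium and red cells, fell by 1.57 ± 0.43 (adjusted p = 0.0364). Cxcr2, the receptor of Cxcl1, Cxcl2 and Cxcl5 on neutrophils, was at -1.21 and -0.47 in the day 0 controls, at -3.61, -3.71 and -3.74 in the day 2 controls, at -2.06, -2.21 and 0.94 in the day 0 mutants and at -3.68, -3.78 and -3.53 in the day 2 mutants. It was highest on mutant day 0 replicate 3 and all day 2 arrays lay below all day 0 arrays. With age it fell by 2.85 ± 0.78 in controls (adjusted p = 0.0458) and by 2.55 ± 0.69 in mutants (adjusted p = 0.032). The fall in mutants was 1.53 ± 0.20 without mutant day 0 replicate 3 (adjusted p = 0.00287). Of 15 NF-kB target genes 1, the acute phase gene Saa1, fell over both days (-0.54 ± 0.15, adjusted p = 0.0367) and 0 rose. Of all genes 7.05% fell and 8.86% rose over both days.

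Markers of cells that make or read chemokines moved with genotype too, and their part in the ligand values was not tested. Over both days 7.05% of all genes fell and 8.86% rose. Of 15 Kupffer cell and macrophage markers 7 fell over both days, among them Csf1r (-0.61 ± 0.12, adjusted p = 0.00745) and Adgre1 (-0.64 ± 0.14, adjusted p = 0.0158). Their summed signal was 219 to 253 in the day 2 controls and 189 to 229 in the day 2 mutants. Of 11 tested neutrophil markers 0 passed by limma, with 4 lower at an unadjusted p under 0.05. Without mutant day 0 replicate 3 all 11 fell, where 12.7% of all genes did. Their summed signal was 435 to 504 in the day 2 controls, 345 to 369 in the day 2 mutants, 718 to 982 in the day 0 controls and 490 to 1067 in the day 0 mutants. Of 11 lymphoid markers 2 fell, Nkg7 (-0.77 ± 0.19, adjusted p = 0.027) and Ifng, which passed the filter only through the day 2 controls. The summed signal of the 11 markers, 4.06 to 7.86 in the day 2 controls, overlapped that of 3.0 to 6.53 in the day 2 mutants. Of 12 endothelial markers 3 fell and 0 rose, with 21.6 to 26.7 against 16.8 to 22.7 at day 2. Of 9 bile duct markers, epithelial cells that can carry Cx3cl1, 8 rose, with 18.6 to 25.3 in the day 2 controls and 237 to 283 in the day 2 mutants. Of 15 stellate cell and fibroblast markers 1 rose and 1 fell. Of 6 dendritic cell markers 1 fell, of 10 hepatocyte markers 7 and of 9 erythroid markers 3, and the erythroid sum was 910 to 1152 in the day 2 controls and 425 to 612 in the day 2 mutants. These counts move with single arrays. The count that fell ran from 2, without either day 0 control or day 2 control replicate 2, to 11 for Kupffer cells, from 1, without either day 0 control or day 2 control replicate 1 or 2, to 5 for endothelium, from 4, without day 0 control replicate 2, to 9 for hepatocytes and from 1, without either day 0 control or day 2 control replicate 1, to 8 for erythroid cells, each highest without mutant day 0 replicate 3. For lymphoid cells it ran from 0 to 3, with 0 without day 0 control replicate 2 or day 2 control replicate 1 or 2. Over all genes the count that fell moved too, from 433 to 2001 with 1 array left out. It was highest, at 12.7% of all genes, without mutant day 0 replicate 3.

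The 12 ligands that were not tested were well above background on at most 4 of the 11 arrays. Ccl1, Ccl11, Ccl22 and Cxcl15 were above background on none. Ccl8 was above it on 2 control arrays and Ccl28 on 1 control array. Xcl1, a ligand of Xcr1 on dendritic cells, was at -4.51 in day 2 control replicate 1, at -5.79 in day 0 mutant replicate 1 and at -5.47 in day 2 mutant replicate 1, and was not above background on the other 8 arrays. Cxcl14 was above it at -4.94 and -5.46 in day 0 mutant replicates 1 and 2, at -5.50 in day 2 control replicate 1 and at -5.75 in day 2 mutant replicate 2. Cxcl13, which calls B cells, was above it in day 0 mutant replicate 2 and day 2 mutant replicate 2, and Ccl21b in mutant day 0 replicate 3. None of these 12 ligands was above background on all arrays of a group. The rule leaves out 2 ligands that the files list under other names. Cxcl3 was at -2.80 on mutant day 0 replicate 3 and above background on 2 arrays. Cxcl17 was above background in all 3 day 2 mutants, at -5.18, -4.72 and -5.53, and in no control, with -8.27 to -7.45 over the 5 controls and -6.02, -6.59 and -6.53 in the day 0 mutants.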

How the data were processed

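Liver RNA of 11 pups, isolated with Qiagen RNeasy, linearly amplified and labelled with Cy3 per the labels' protocols, was measured on 1-colour Agilent arrays, 1 per pup. The deposited intensity values are the processed signals of Feature Extraction 9.5.3.1, background subtracted and detrended within each array, per the file headers. The authors' deposited log2 table (33322 probes, made with RMA per the submitters' processing notes) served as an alternative. Here the log2 processed signal was scaled to the 75th percentile of each array, outlier spots were left out and spots of a probe averaged. The filter asked for signal well above background in all arrays of 1 group or more (27151 of 41174 probes, 30 of the 45 of chemokine ligands), and a gene was read from its brightest kept probe. Names were updated through RefSeq by accession (23374 probes), symbol (6733) or synonym (2919); 1425 kept the name of the file alone and 6723 had none. Cxcl4 and Cxcl7 are Pf4 and Ppbp in RefSeq.

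limma 3.58.1 (R 4.3.3; lmFit and eBayes, residual degrees of freedom 7, prior 2.39) was fitted to 4 groups over 15717 genes, with Benjamini-Hochberg adjusted p under 0.05 as the threshold. The contrasts were mutants minus controls over the 2 days (weighted equally), mutants minus controls on each day alone, the change of that effect from day 0 to day 2, and day 2 minus day 0 within each genotype. Where a group was below background on all its arrays, a fold is given against the lowest signal well above background on each array. Some probes above that level were still not well above background, so such a fold is not a strict lower bound. The model was run on simulated data, with independent normal values and the same spread of a gene on all arrays. These held no outlying array, slide effect or background floor, so that run cannot show how the model handles them. Tables and plots used Python 3.11.15, pandas 2.3.3 and matplotlib 3.10.9. The number of arrays, 2 or 3 a group, limits the precision.

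The ligands, and the lists of receptors, pathway genes and markers, were chosen with earlier results of these data known. Values of each array were given for ligands that passed in a contrast and for 17 set ligands (Cxcl9, Cxcl10, Cxcl11, Cxcl1, Cxcl2, Cxcl5, Cxcl12, Cxcl14, Cxcl16, Ccl2, Ccl5, Ccl6, Ccl9, Ccl24, Ccl25, Cx3cl1 and Xcl1). Of the receptor, interferon and NF-kB lists, at most 4 genes past the threshold over both days were named by smallest p, with Cxcr3, Cxcr2, Ccr2, Cxcr4 and Ackr3, and of each marker list at most 2 by smallest p. Named outside this rule, after their values were seen, were Cxcl4, Ackr1, Ackr4, Ccr3, Cx3cr1, Cxcl3, Cxcl17, Hspa1a and Fos. Replicate numbers are slides, and each group took the same position on every slide, so position and group cannot be told apart. Deviations from the group means of day 2 arrays with the same number correlated at 0.283, 0.224 and 0.26, while other day 2 pairs gave -0.217 to -0.0507. Within centred groups, positive values for some pairs push those of the others down, so this contrast is partly built in. The numbers were taken to pair the day 2 arrays in alternative fits only, and the main fit held no block. As a random block the numbers gave a consensus correlation of 0.0172. At day 0 the same-numbered arrays gave 0.0622 and 0.0921.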

Additional observations from a re-analysis of the deposited data

Results flagged for a closer look

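Some ligands with probes too dim to be tested gave a signal well above background on single mutant arrays, above the level of every control array. Cxcl2 did so on day 0 mutant replicate 2 (-4.551), day 0 mutant replicate 3 (-0.3199) and day 2 mutant replicate 2 (-3.717). Cxcl11 (-4.324) and Ccl21b (-4.232) did so on day 0 mutant replicate 3, the array that stood apart. Cxcl13 did so on day 0 mutant replicate 2 (-4.704) and day 2 mutant replicate 2 (-5.853), and Cxcl14 on day 0 mutant replicates 1 (-4.943) and 2 (-5.457). The -5.457 of Cxcl14 lies close to its -5.501 on day 2 control replicate 1. The reverse occurred too, with signal well above background on single control arrays, above the level of every mutant array. Xcl1 did so on day 2 control replicate 1 (-4.508) and Ccl28 on 1 day 0 control. Ccl8 did so on day 0 control replicate 2 (-4.433) and day 2 control replicate 1 (-5.509). No test was made of these values.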

How the results depend on the processing

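The results were recomputed under 13 alternatives and with each of the 11 arrays left out in turn. Cx3cl1 and Cxcl9 passed over both days and at day 2 under every alternative that gave them a value. Over both days the count of ligands that fell was 1 under quantile normalization and 1 with no filter on dim probes. At day 2 the count that rose was 2 under quantile normalization, and the count that fell was 0 with a filter for signal on all 11 arrays, which leaves Cxcl9 and Ccl12 untested, and 6 with only the compared groups in the fit. In controls over time, the count that rose was 0 under quantile normalization, the authors' table, no filter, the mean of a gene's probes, the replicate block and pup sex. In mutants over time the count that rose was 2 under quantile normalization and 0 under the mean of probes, pup sex and only the compared groups, and the count that fell was 1 under the authors' table, 1 under the filter on all arrays and 2 with only the compared groups. The causes were not tested. Leaving out 1 array gave over both days 1 to 1 higher and 1 to 6 lower, at day 0 0 to 0 and 0 to 2, at day 2 1 to 2 and 1 to 8, in controls over time 0 to 1 and 0 to 1, and in mutants over time 0 to 3 and 1 to 6. The counts over all genes moved too. Over both days they were 878 to 2068 higher and 433 to 2001 lower, and at day 2 they were 994 to 2341 and 409 to 2384. Ccl2 from day 0 to day 2 in mutants ran from -2.886 to 1.215, the latter without day 0 mutant replicate 3. With the replicate number as a fixed block over the arrays of both days, 1 ligand rose and 2 fell at day 2. The block changed no other count of calls by over 1.5 times than that in controls over time. The signal over background limits Cxcl9, Cxcl5 and Ccl12 in the day 2 mutants.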
